A study of Drosophila melanogaster with 15 samples.

Results

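Tandem splice sites are alternative donors or acceptors that lie within a few bases of each other, so that one intron is cut at either of both places. They were taken from the table of splice junctions as pairs of junctions of the same gene that share one end exactly, whose other ends lie 1 to 30 bp apart, and that were selected on their depth, with at least 75 reads of each junction in total over the 15 libraries. The rule gave 546 tandem pairs, which is 12.4% of the 4401 pairs of junctions that share an end at the same read minimum. They use 1015 junctions in 398 genes, and 58 of these junctions belong to more than 1 pair, so the pairs are not independent of each other. A further 4 close pairs were left out because the genes listed for their junctions match only in part. The measurement is the share of the shorter intron, the percentage of the reads of both junctions that fall on the shorter intron, in each library. The pairs were thus chosen by read totals over all genotypes, and a junction could reach the minimum through the groups where it is high. In 81 of the 546 pairs a junction had fewer than 25 reads in at least 1 of the 3 genotypes, and in 24 this was GMR/+.

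RNA from the heads of Drosophila was sequenced in 3 genotypes with 5 libraries each. GMR/+ control flies (replicates 1 to 5) carried the GMR driver without an RNAi transgene, GMR > prp4 RNAi flies (replicates 6 to 10) carried a GD line against prp4 (CG7028) and GMR > prp8 RNAi flies (replicates 11 to 15) a GD line against Prp8. PRP4 is a kinase of the tri-snRNP, the particle that brings the catalytic RNAs to the intron, and Prp8 is the core protein of the spliceosome. All flies were 3 to 5 days old, were kept for 3 or more cycles with 12 h light and 12 h dark, and were labelled as frozen at ZT12, an hour that the study's text does not give throughout. GMR drives expression in the eye, whereas whole heads were sequenced, so a change in the eye is diluted by every other tissue, and fewer cells of a type and less RNA per cell cannot be told apart. Each RNAi group is a single transgenic line, so the knockdown and the genetic background of its line cannot be told apart.

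During splicing the donor at the start of the intron is joined to the acceptor at its end, and the spliceosome ordinarily takes the first AG downstream of the branch point as acceptor. Where NAG triplets (any base and then AG) follow each other, as in the NAGNAG arrangement known from mammals and flies, either AG can be used. The messages then differ by a single codon. Tandem donors are paired instead with the U1 and U6 RNAs. Within coding sequence a distance that is a multiple of 3 keeps the reading frame, and other distances shift it. For acceptors the shorter intron uses the upstream acceptor, and for donors it uses the downstream donor, so in both cases the shorter intron leaves the longer exon.

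The junction reads of the libraries summed to between 3129163 and 3244363, and the tandem junctions held 15.2% of them. The targeted genes were close between the groups in whole heads. CG7028 had 141 to 165 reads in GMR/+ and 111 to 149 in GMR > prp4 RNAi (log2 fold change −0.23, adjusted p = 0.101 from edgeR), and Prp8 had 1339 to 1545 reads in GMR/+ and 1264 to 1572 in GMR > prp8 RNAi (log2 fold change −0.11, adjusted p = 0.278 from edgeR). The library labelled GMR > prp8 RNAi replicate 14 stood apart from its group. It held the 1572 reads of Prp8 against 1264 to 1311 in the other 4, which lay below the 1339 to 1545 of GMR/+. The Prp8 fit above includes replicate 14 and was not run without it. Replicate 14 also held 6629 reads of w, the eye color gene that marks transgenes, against 4081 to 4613 in the other 4, 5524 to 6464 in GMR > prp4 RNAi and 454 to 509 in GMR/+. For the comparisons past the threshold, the fits of the GMR > prp8 RNAi group are therefore given with and without it. All genes of the marker lists for photoreceptors, neurons, glia, fat body and muscle had reads. The summed level of 13 photoreceptor genes ranged from 131782 to 139093 CPM (reads scaled to a common library size) in GMR/+, 123343 to 140014 in GMR > prp4 RNAi and 117546 to 132415 in GMR > prp8 RNAi. Glia markers summed to 3990 to 4564 CPM in GMR/+, 3494 to 3914 in GMR > prp4 RNAi, wholly below the controls, and 3480 to 4152 in GMR > prp8 RNAi. Fat body markers summed to 2820 to 6605, 2230 to 17857 and 1307 to 7976 CPM in the same order. The ranges of neurons overlapped between all groups, and so did those of muscle. The part of these differences in the results was not tested.

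Most tandem pairs were pairs of acceptors, and most lay at a distance that is a multiple of 3. There were 380 acceptor pairs (69.6%) and 166 donor pairs. The distance was a multiple of 3 in 452 of the 546 pairs (82.8%). This held for 336 of the 380 acceptor pairs (88.4%) and for 116 of the 166 donor pairs (69.9%). The stretch between the alternative ends lay in coding sequence in 441 pairs, and 403 of these (91.4%) were at a multiple of 3. In the 66 pairs whose stretch lay in an untranslated region the number was 33 (50.0%). Pairs of junctions 31 to 100 bp apart, with the stretch in coding sequence, were at a multiple of 3 in 97 of 120 cases (80.8%). These are counts of the pairs that passed the read minimum, given as a description. Multiples of 3 made up 75.5% of all tandem pairs at a minimum of 30 reads and 89.5% at 300 reads.

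**Figure D1:**
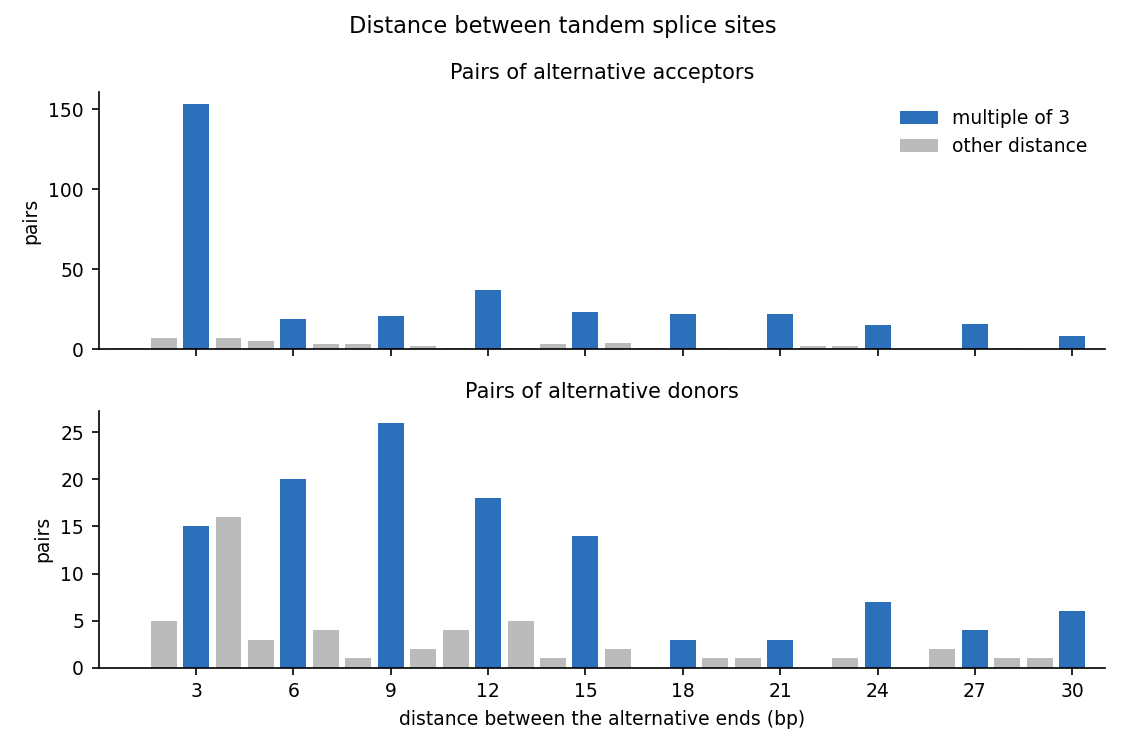
Number of tandem pairs (vertical axis) at each distance in bp between the alternative ends (horizontal axis), for acceptors above and donors below, with multiples of 3 in blue and other distances in gray. Acceptors peak at 3 bp with 153 pairs, and donors at 9 bp with 26 pairs and have a further group of 16 pairs at 4 bp.

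A distance of 3 bp was the commonest for acceptors, with 153 of the 380 pairs (40.3%), and 134 of these lay in coding sequence. After it came 12 bp with 37 pairs and 15 bp with 23. Donors were spread more evenly, with 26 pairs at 9 bp, 20 at 6 bp, 18 at 12 bp, 16 at 4 bp and 15 at 3 bp. Of the 16 donor pairs 4 bp apart, a distance that shifts the frame within coding sequence, 4 lay there. The shorter intron measured 100 bp or less in 228 of the 546 pairs (41.8%) and in 230 of the 3855 pairs whose ends lie further apart (5.97%).

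Both introns were annotated (Ensembl release 115) in 415 tandem pairs, only the shorter in 49, only the longer in 32 and neither in 50. The 50 pairs with no annotated intron came from 21 genes, and 34 of them from 5 genes. CG13607 and ninaE held 10 each, Ef1alpha48D, a translation elongation factor, held 8, and Cdc42, a small GTPase, and RhoGAP15B held 3 each. A multiple of 3 was found in 30 of these 50 (60.0%) and in 379 of the 415 pairs with both introns annotated (91.3%). Of the 494 shared ends, 470 had 2 close alternatives, 15 had 3, 7 had 4 and 2 had 5. The last group comprised par-1, a polarity kinase, and CG13607.

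Since the rule asks for reads of both junctions, the balance within the pairs is a description. The minor intron held 25 to 50% of the reads in 312 pairs, 10 to 25% in 145, 5 to 10% in 51, 1 to 5% in 28 and under 1% in 10. The shorter intron was the major one in 274 of the 546, close to an even split. Among acceptors 3 bp apart the upstream acceptor was the major one in 78 of 153 pairs, and the minor acceptor held at least 25% of the reads in 89. The median share of the shorter intron in GMR/+ was 47.4% for these 153 pairs, with quartiles of 26.6 and 70.0%. It was 71.8% for the 19 acceptor pairs 6 bp apart and 65.8% for the 21 pairs 9 bp apart. Donors 4 bp apart had the lowest median of the classes with at least 4 pairs, 30.8%, and the downstream donor was the minor one in 11 of the 16.

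**Figure D2:**
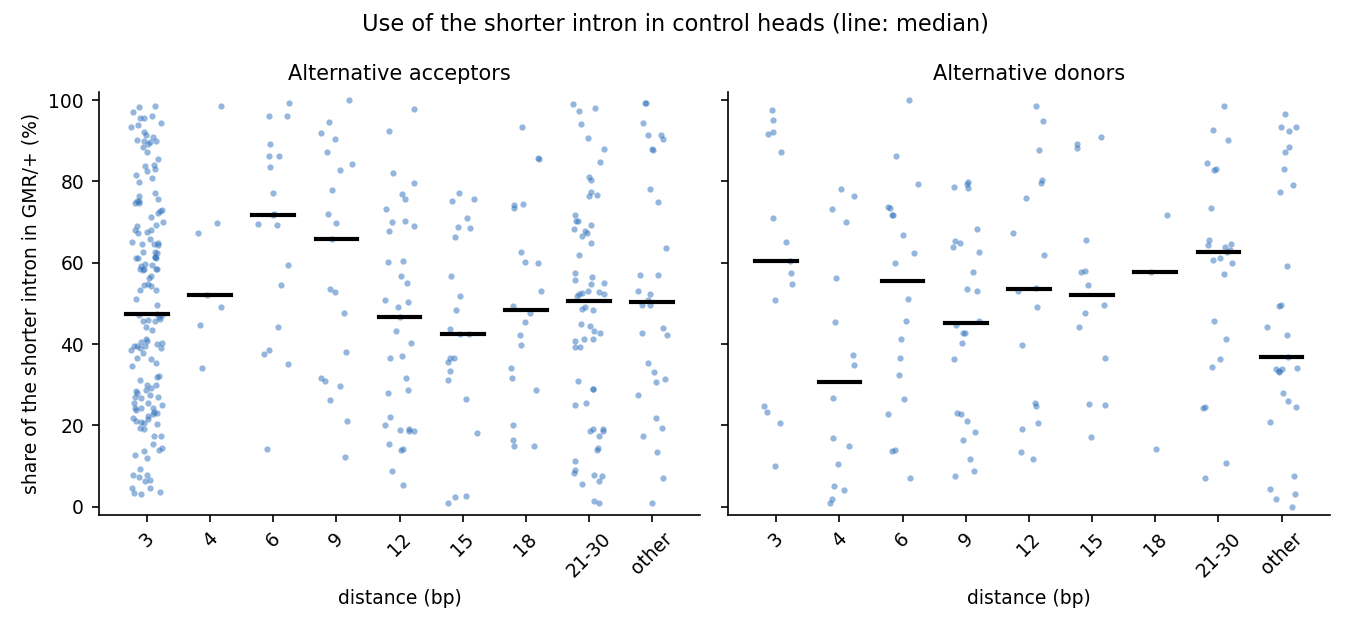
Mean share of the shorter intron in the 5 GMR/+ libraries (vertical axis, %) for every tandem pair, by distance in bp (horizontal axis), with acceptors on the left, donors on the right and a bar at each median. Points fill the range from 0 to 100% in most classes, and the median of donors 4 bp apart is 30.8%.

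The deepest acceptor and donor pairs whose minor intron held at least 5% of the reads show what this measurement resolves. TMS1, of the serine incorporator family, joined 1 donor on chromosome 3L (intron start 16414494) to 3 acceptors in coding sequence. The share of the nearest against the acceptor 9 bp downstream was 82.9 ± 1.17% in GMR/+ (SD, n = 5), 83.5 ± 0.982% in GMR > prp4 RNAi and 83.8 ± 0.878% in GMR > prp8 RNAi. CG5059 used the upstream of a pair of acceptors 3 bp apart at 90.9 ± 0.566, 91.7 ± 0.660 and 90.8 ± 0.739% in the same order. These differences of under 1 point did not pass the test (adjusted p from 0.80 to 0.987 from edgeR). CoVIIc, which encodes a cytochrome c oxidase subunit, had donors 5 bp apart in its 3′ UTR with shares of 79.0 ± 1.56, 83.3 ± 0.802 and 80.4 ± 1.5%. Its GMR/+ and GMR > prp4 RNAi libraries did not overlap, and the difference of 4.28 points missed the threshold (adjusted p = 0.0788 from edgeR). Precision follows the depth of the minor intron. The median SD between GMR/+ libraries was 4.06 points for the 153 pairs with 300 or more reads of the minor intron, 6.05 points for 150 to 299 reads and 7.29 points for 75 to 149 reads. Pairs just inside the limit of 75 reads included elB, with 75 and 204 reads and a share of 26.9%, and Cyp309a2, with 1226 and 75 reads and 94.2%. Just outside were Rbp9, with 74 and 1815 reads and a share of 3.92%, and brp, with 74 and 101 reads and 42.3%. At the limit of 30 bp hoe1 lay inside, with 129 and 1689 reads (7.10%), and CG13124 outside at 31 bp, with 2669 and 103 reads (96.3%).

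The donor pairs 4 bp apart were named by depth among those whose minor intron held at least 5% of the reads over all libraries. The deepest of these were in Jabba, a lipid droplet protein, CG5001, Hsc70-4, a chaperone of the cytosol, DIP1 and CG10194. Their mean shares in GMR/+ were 37.3 ± 5.11, 16.8 ± 2.23, 4.99 ± 2.31, 34.7 ± 6.51 and 10.6 ± 5.33% (SD, n = 5). The downstream donor was thus the minor one in all 5. Hsc70-4 had 9.75 ± 3.07% in GMR > prp8 RNAi (adjusted p = 0.121 from edgeR). Without replicate 14 it had 10.9 ± 2.12% and passed the threshold (log2 odds ratio 1.20, adjusted p = 0.0400 from edgeR). Of the deepest acceptor pairs 3 bp apart whose minor intron held at least 5% of the reads, CG4577 had 7.81 ± 1.19%, and vig, a component of the RNA-induced silencing complex, had 7.24 ± 0.989% in GMR/+, so their downstream acceptors predominated.

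Few tandem pairs passed the threshold when prp4 was knocked down. The test compared the ratio of the shorter to the longer intron between 5 and 5 libraries with edgeR, with p-values adjusted over all 4401 pairs and a threshold of 0.05, and its log2 odds ratio is 0 where the ratio is the same in both groups. In GMR > prp4 RNAi against GMR/+ 6 of the 546 pairs (1.10%) passed, against a background of 1.82% of all pairs. The shorter intron was higher in 1 (background 0.909%) and lower in 5 (background 0.909%). The libraries did not overlap in 16 pairs (background 3.29%), and 45 pairs had an unadjusted p under 0.05 (background 10.9%). The mean share over all 546 pairs was 50.6 ± 0.568% in GMR/+ (SD, n = 5) and 50.3 ± 0.301% in GMR > prp4 RNAi. The median absolute difference was 2.23 points for tandem pairs and 3.12 points over all pairs, and a difference of 20 points or more was found in 3 tandem pairs (0.549%) and in 65 of all pairs (1.48%). Among these 3 is an unannotated pair of CG43897, described below, with 3 and 5 reads in GMR/+ and no usable control share.

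**Figure D3:**
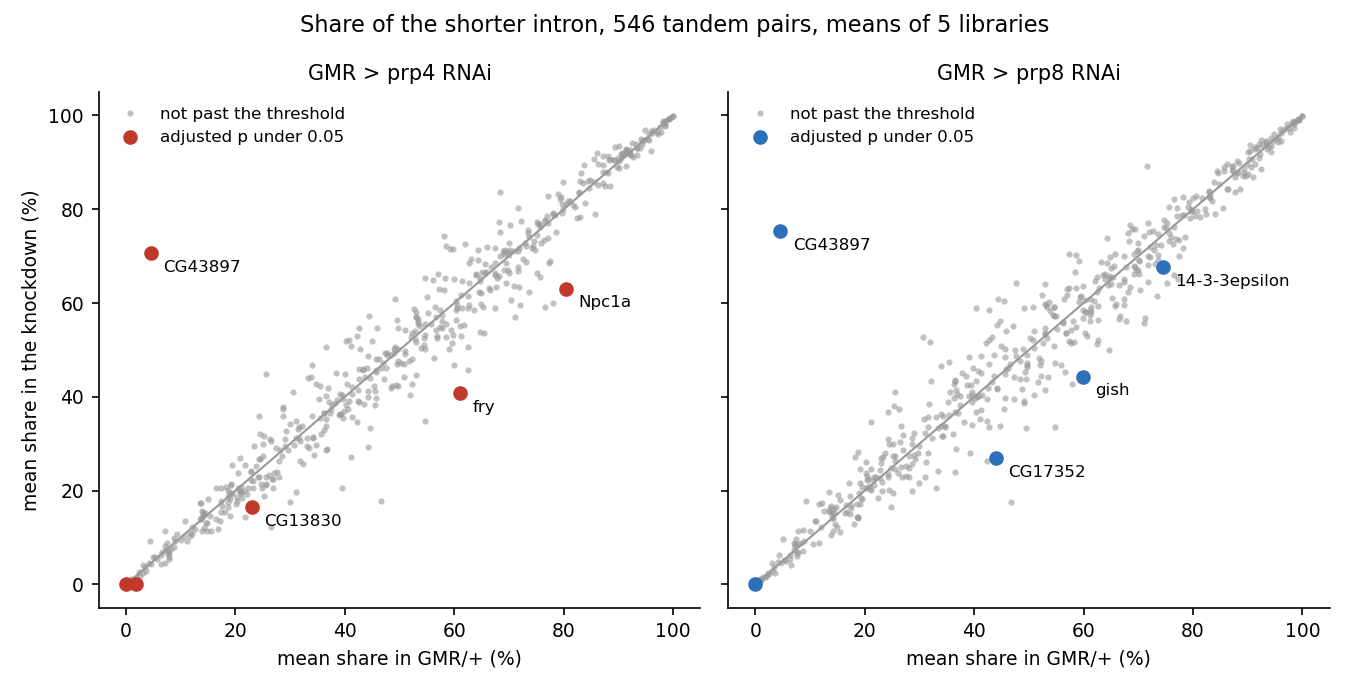
Mean share of the shorter intron in GMR > prp4 RNAi (left) and GMR > prp8 RNAi (right) against the mean share in GMR/+ (horizontal axes, %), 1 point per tandem pair and means of 5 libraries, with pairs past the threshold colored and the line of equal shares in gray. Most pairs lie near the line, and CG43897 lies far from it at 4.57% against 70.6 and 75.3%.

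CG43897 changed by more points than any other tandem pair past the threshold, in both knockdowns. Its acceptors lie 3 bp apart in coding sequence on chromosome 3L (BDGP6, introns 9831441 to 9832195 and 9831441 to 9832198), and both introns are annotated. Use of the upstream acceptor was 5.32, 3.97, 7.41, 3.92 and 2.26% in GMR/+, from 94 to 133 reads per library. It was 72.8, 79.3, 75.3, 57.0 and 68.5% in GMR > prp4 RNAi. In GMR > prp8 RNAi it was 75.9, 75, 72.5, 75 and 78.2%. The upstream junction had 25 reads in GMR/+, 755 in GMR > prp4 RNAi and 999 in GMR > prp8 RNAi, so it met the minimum of 75 reads through the knockdowns. Every knockdown library lay far above every control library, and replicate 14 lay with its group. The mean rose from 4.57 ± 1.92% to 70.6 ± 8.55% (log2 odds ratio 5.74, SE 0.27, adjusted p = 1.36e-19 from edgeR) and to 75.3 ± 2.06% (log2 odds ratio 6.00, SE 0.23, adjusted p = 2.04e-24 from edgeR). Without replicate 14 the prp8 mean was 75.4 ± 2.37% (log2 odds ratio against GMR/+ 6.00, adjusted p = 2.91e-26 from edgeR). The knockdowns did not differ from each other past the threshold (log2 odds ratio −0.26, SE 0.19, adjusted p = 0.760 from edgeR). The gene's count did not pass its own test in either knockdown (log2 fold changes −0.12 and 0.03).

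The ratio of the same acceptors did not pass the test when they were joined to another donor. From the upstream donor (introns 9830786 to 9832195 and 9830786 to 9832198) the share of the shorter intron was 23.2% at most and 16.9% at least in GMR/+. The means were 19.2 ± 2.59% in GMR/+, 21.5 ± 2.31% in GMR > prp4 RNAi and 17.2 ± 1.75% in GMR > prp8 RNAi, with differences of 2.25 and −1.98 points (adjusted p = 0.816 and 0.879 from edgeR). The reads of both junctions were lower in the knockdowns. The shorter intron summed to 293 in GMR/+, 155 in GMR > prp4 RNAi and 148 in GMR > prp8 RNAi. The longer intron summed to 1239, 580 and 703 in the same order, given without a test. Another pair of acceptors 3 bp apart (9830786 to 9831431 and to 9831434), in which neither intron is annotated, lay only 9 and 6 bases before the donor at 9831441. Its 2 junctions held 3 and 5 reads in all GMR/+ libraries together, 110 and 464 in GMR > prp4 RNAi, and 146 and 668 in GMR > prp8 RNAi. Reads from the annotated acceptor of the same exon (9830786 to 9830999) summed to 742, 764 and 897. Both unannotated junctions met the read minimum through the knockdowns, and they were singled out after their values were seen, so these sums are given with no test. Only 3 of the 5 GMR/+ libraries had a read of this tandem pair, which gives no usable control share. The fourth pair of the gene (9832867 to 9832924 and to 9832927) stayed at 4.62 ± 0.643, 4.36 ± 0.570 and 4.65 ± 0.603%.

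**Figure D4:**
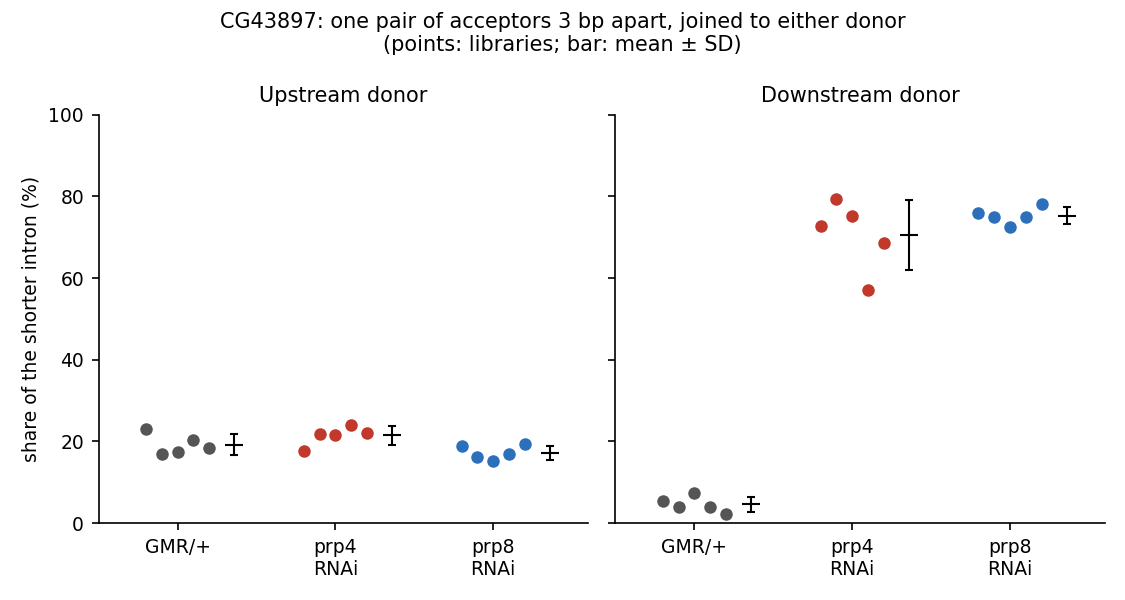
Share of the shorter intron (vertical axis, %) at the acceptors 3 bp apart of CG43897 when joined to the upstream donor (left) or the downstream donor (right), by genotype, with a point for each library and a bar at the mean ± SD of 5. From the upstream donor every library lies between 15.2 and 24.0%, and from the downstream donor the knockdowns lie at 57.0 to 79.3% and the controls at 2.26 to 7.41%.

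Npc1a, the fly counterpart of the Niemann-Pick type C sterol transporter, changed in the prp4 knockdown. Its donors lie 12 bp apart in coding sequence (chromosome 2L, introns 10217181 to 10217340 and 10217181 to 10217352). The share of the downstream donor was 79.3, 78.4, 83.6, 79.8 and 80.9% in GMR/+. In GMR > prp4 RNAi the values were 64.7, 62.4, 63.6, 60.3 and 64.4%, below every control. The share fell from 80.4 ± 1.99% to 63.1 ± 1.79% (log2 odds ratio −1.25, SE 0.14, adjusted p = 3.42e-08 from edgeR). In GMR > prp8 RNAi it was 81.5, 81.8, 85.3, 63.2 and 80.7%, and the value of 63.2% is from the library with the label GMR > prp8 RNAi replicate 14. That library lay among the prp4 knockdown libraries, and the other 4 lay within or above the range of the controls (log2 odds ratio of the group against GMR/+ −0.13, adjusted p = 0.933 from edgeR). Without it the prp8 mean was 82.3 ± 2.04% (log2 odds ratio 0.19, adjusted p = 0.797 from edgeR). The gene's own count did not pass its test (log2 fold change −0.04).

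CG31313 had donors 11 bp apart (chromosome 3R, introns 14567007 to 14567153 and 14567007 to 14567164), with the stretch between them partly in coding sequence. The shorter intron held 7, 13, 5, 9 and 10 reads in GMR/+ beside 383 to 498 reads of the longer one. In GMR > prp4 RNAi it held 0 of 3024 reads, which allows a share of up to 0.0992% and makes it at least 19.2-fold lower than the pooled 1.91% of the controls, with a floor of 3 counts over the group (adjusted p = 2.64e-08 from edgeR). In GMR > prp8 RNAi it held 5, 11, 7, 0 and 8 reads, with the 0 in replicate 14, which had 491 reads of the longer intron (adjusted p against GMR/+ = 0.853 from edgeR, and 0.985 without it). The shorter junction had 44 reads in GMR/+, 0 in GMR > prp4 RNAi and 31 in GMR > prp8 RNAi. It thus only just met the read minimum, through the groups where it is high. The fold limit and the p-value of GMR > prp4 RNAi against GMR/+ are for a pair selected in this way. The count of CG31313 rose in GMR > prp4 RNAi (log2 fold change 0.42, SE 0.10, adjusted p = 0.0150 from edgeR).

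CG13830 had donors 9 bp apart in coding sequence (chromosome 3R, introns 23074002 to 23075005 and 23074002 to 23075014). The downstream donor took 21.1, 25.9, 23.7, 23.1 and 21.3% in GMR/+, and 16.1, 17.2, 18.7, 13.1 and 17.3% in GMR > prp4 RNAi. The groups did not overlap, and the share fell from 23.0 ± 1.96% to 16.5 ± 2.10% (log2 odds ratio −0.60, SE 0.13, adjusted p = 0.00578 from edgeR). The prp8 knockdown had 25.9 ± 6.07%, and 28.2 ± 3.48% without replicate 14 (adjusted p = 0.784 and 0.156 from edgeR). In fry, which acts with the kinase Tricornered in shaping dendrites and wing hairs, the acceptors lay 3 bp apart (chromosome 3L, introns 9632174 to 9632232 and 9632171 to 9632232). The upstream acceptor had 63.6, 74.4, 54.5, 49.0 and 64.0% in GMR/+ against 36.8, 44.2, 39.6, 37.3 and 46.3% in GMR > prp4 RNAi, with no overlap. The mean fell from 61.1 ± 9.77% to 40.8 ± 4.21% (log2 odds ratio −1.15, SE 0.29, adjusted p = 0.0202 from edgeR), from 241 and 247 reads in all. This call was lost when any 1 of 6 libraries was left out (replicates 6, 8 and 9 and GMR/+ replicates 1, 2 and 5), with adjusted p from 0.0532 to 0.0897 from edgeR. For the prp8 knockdown the mean was 58.6 ± 13.6%, and 63.7 ± 8.83% without replicate 14 (adjusted p = 0.976 and 0.957 from edgeR). Neither gene changed in its count past the threshold.

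ninaE, which encodes the rhodopsin Rh1 of the outer photoreceptors, was the deepest pair and the most uneven. Its donors lay 16 bp apart (chromosome 3R, introns 19887224 to 19887382 and 19887224 to 19887398), and the shorter intron is not annotated. The shorter intron held 13, 14, 7, 14 and 12 reads in GMR/+ beside 320817 to 356416 reads of the longer one, or 3.56 ± 0.924 per 100000 reads (SD, n = 5). GMR > prp4 RNAi had 2, 5, 5, 4 and 5 reads, or 1.20 ± 0.349 per 100000, and this lower ratio passed the threshold (log2 odds ratio −1.52, SE 0.33, adjusted p = 0.00384 from edgeR). With all 15 libraries in one fit it did not pass (adjusted p = 0.121 from edgeR). GMR > prp8 RNAi had 57, 66, 60, 7 and 60 reads, or 16.2 ± 8.06 per 100000, and the ratio rose (log2 odds ratio 2.13, SE 0.32, adjusted p = 9.98e-06 from edgeR). The 7 reads are from replicate 14, and without it the mean was 19.8 ± 1.67 per 100000 (log2 odds ratio 2.46, adjusted p = 3.26e-14 from edgeR). At these rates the unannotated donor took at most 22.2 of 100000 reads of this junction pair in any library.

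About as few tandem pairs passed the threshold in the prp8 knockdown. In GMR > prp8 RNAi against GMR/+ 5 of the 546 pairs (0.916%) passed, against a background of 1.89%. The shorter intron was higher in 2 (background 0.909%) and lower in 3 (background 0.977%). The libraries did not overlap in 7 pairs (background 2.75%), and 35 had an unadjusted p under 0.05 (background 9.48%). Without replicate 14 the number was 9, against a background of 2.48% of all pairs. The mean share over all tandem pairs was 50.6 ± 0.305%. The median absolute difference was 2.53 points for tandem pairs and 3.04 points over all pairs, and a difference of 20 points or more was found in 4 tandem pairs (0.733%) and in 60 of all pairs (1.36%). Among these 4 is the unannotated pair of CG43897 above, with 3 and 5 reads in GMR/+ and no usable control share. Both knockdowns were compared with the same 5 control libraries. CG43897 and ninaE were the 2 pairs past the threshold in both, and for ninaE the directions were opposite.

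gish, a casein kinase of the gamma family, had acceptors 18 bp apart in coding sequence (chromosome 3R, introns 16301352 to 16301804 and 16301352 to 16301822). The upstream acceptor took 60.0, 57.2, 60.4, 62.9 and 59.1% in GMR/+. It was 63.6, 67.9, 65.0, 65.7 and 63.9% in GMR > prp4 RNAi, above every control by a margin that did not pass the test over all pairs (adjusted p = 0.435 from edgeR). In GMR > prp8 RNAi it was 43.9, 42.5, 36.9, 62.9 and 35.4%, where 62.9% is from replicate 14. The other 4 libraries lay below all controls. The share fell from 59.9 ± 2.06% to 44.3 ± 11% (log2 odds ratio −0.92, SE 0.20, adjusted p = 0.00558 from edgeR), and to 39.7 ± 4.15% without that library (log2 odds ratio −1.19, adjusted p = 1.01e-06 from edgeR). The gene's count rose in both knockdowns (log2 fold changes 0.28 and 0.27, adjusted p = 0.0135 and 0.0243 from edgeR).

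14-3-3epsilon encodes a phosphoserine-binding adaptor protein. It joined 1 donor (chromosome 3R, intron start 18248152) to 4 acceptors in coding sequence, with intron ends at 18248214, 18248217, 18248220 and 18248232. In GMR/+ they took 57.0 ± 0.839, 14.4 ± 1.02, 9.02 ± 0.366 and 19.6 ± 1.22% of the reads (SD, n = 5). In GMR > prp8 RNAi they took 52.1 ± 1.51, 13.3 ± 0.716, 9.69 ± 1.23 and 24.9 ± 1.72%. Between the outer acceptors, 18 bp apart, the share of the upstream one was 75.3, 74.1, 76.2, 73.8 and 72.8% in GMR/+ and 67.2, 66.3, 67.5, 70.9 and 66.5% in GMR > prp8 RNAi. The groups did not overlap, and the 70.9% was from replicate 14. The share fell from 74.4 ± 1.32% to 67.7 ± 1.85% (log2 odds ratio −0.48, SE 0.12, adjusted p = 0.0267 from edgeR), and to 66.9 ± 0.563% without it (adjusted p = 0.00466 from edgeR). The call was lost when any 1 of 8 other libraries was left out (replicates 11, 12, 13 and 15 and GMR/+ replicates 1, 2, 3 and 4), with adjusted p from 0.0507 to 0.0934 from edgeR. The acceptors 3 bp apart at the upstream end had a share of 79.8 ± 1.21% in GMR/+ and 79.6 ± 1.0% in GMR > prp8 RNAi. Without replicate 14 the pair 15 bp apart, which shares the most distant acceptor, also passed (42.4 ± 3.08% against 34.0 ± 2.15%, adjusted p = 0.0331 from edgeR).

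CG17352 had acceptors 14 bp apart in coding sequence (chromosome 3L, introns 8353427 to 8353478 and 8353413 to 8353478), a distance that shifts the reading frame. Its upstream acceptor took 32.5, 50.0, 40.4, 46.3 and 50.9% in GMR/+ and 29.7, 30.2, 18.8, 29.5 and 26.5% in GMR > prp8 RNAi. The groups did not overlap, and here replicate 14 lay within its group. The share fell from 44.0 ± 7.65% to 26.9 ± 4.80% (log2 odds ratio −1.11, SE 0.29, adjusted p = 0.0304 from edgeR), from 247 and 248 reads in all. Without replicate 14 the adjusted p was 0.0279 from edgeR, and the call was lost without replicate 11, 13 or 15 or without GMR/+ replicate 2, 4 or 5 (adjusted p from 0.0563 to 0.133 from edgeR). The gene's count fell in both knockdowns (log2 fold changes −0.25 and −0.36, adjusted p = 0.00910 and 0.00155 from edgeR).

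The knockdowns differed from each other in 9 tandem pairs (1.65%), against a background of 1.07% of all pairs. The shorter intron was higher in GMR > prp4 RNAi in 2 (background 0.545%) and lower in 7 (background 0.523%). The libraries did not overlap in 8 pairs (background 1.52%), and 44 had an unadjusted p under 0.05 (background 8.86%). The pairs of ninaE (log2 odds ratio −3.65), CG31313, gish (1.24), Npc1a (−1.12), CG13830 (−0.81) and CG17352 (1.19) were among them, with adjusted p from 6.91e-09 to 0.0215 from edgeR. The fitted ratio of CG31313 is not given because it rests on the group at 0. The other 3 pairs, in chp, AdoR and Tequila, passed the threshold against GMR/+ in neither knockdown with all 5 libraries. Between the knockdowns CG17352 was lost without replicate 8, 10, 13 or 15 (adjusted p from 0.0557 to 0.124 from edgeR). Without replicate 14 the number was 10, with fry as the addition, against a background of 1.98% of all pairs.

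chp encodes chaoptin, a cell surface protein of photoreceptor microvilli. It had acceptors 21 bp apart in coding sequence (chromosome 3R, introns 31209720 to 31210260 and 31209699 to 31210260). In GMR/+ and the prp4 knockdown the upstream acceptor took 97.3, 96.8, 97.1, 96.9 and 98.3% in GMR/+, and 95.3, 96.3, 96.4, 96.6 and 95.7% in GMR > prp4 RNAi. It was 98.6, 99.0, 98.6, 96.1 and 98.7% in GMR > prp8 RNAi, with 96.1% in replicate 14. The prp4 libraries lay below and 4 of the prp8 libraries above the controls (log2 odds ratio of prp4 against prp8 −1.21, SE 0.22, adjusted p = 0.000980 from edgeR), and DESeq2 did not call the pair (adjusted p = 0.0811). Against GMR/+ the prp8 knockdown passed without replicate 14 (98.8 ± 0.172% against 97.3 ± 0.595%, log2 odds ratio 1.14, adjusted p = 0.000172 from edgeR) and did not pass with it (adjusted p = 0.213).

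AdoR, the adenosine receptor, had donors 6 bp apart in coding sequence (chromosome 3R, introns 30136420 to 30136485 and 30136420 to 30136491). Its downstream donor took 12.2, 15.7, 6.98, 13.9 and 12.8% in GMR > prp4 RNAi, 51.0, 33.9, 41.7, 2.70 and 39.5% in GMR > prp8 RNAi and 18.2 to 38.9% in GMR/+ (log2 odds ratio of prp4 against prp8 −1.92, SE 0.41, adjusted p = 0.00518 from edgeR). DESeq2 did not call the pair (adjusted p = 0.182). The lowest value of all 15 libraries was from replicate 14, and without it the prp8 mean was 41.5 ± 7.13% (adjusted p against GMR/+ = 0.0682 from edgeR, and 0.638 with it). The pair is shallow, with 246 reads in GMR > prp4 RNAi and 281 in GMR > prp8 RNAi.

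Tequila, a serine protease related to neurotrypsin, had acceptors 3 bp apart (chromosome 3L, introns 9085301 to 9085361 and 9085301 to 9085364), of which the upstream one is not annotated. Its share was 23.3, 25.3, 26.0, 27.7 and 29.7% in GMR > prp4 RNAi and 25 to 34.9% in GMR/+. It was 52.3, 58.8, 67.4, 26.3 and 53.2% in GMR > prp8 RNAi, where 26.3% is from replicate 14. The other 4 libraries lay above every library of the other genotypes (log2 odds ratio of prp4 against prp8 −1.41, SE 0.30, adjusted p = 0.00637 from edgeR). This call was lost without replicate 13 (adjusted p = 0.0739 from edgeR) and by DESeq2 (adjusted p = 0.0835). Against GMR/+ the prp8 knockdown passed only without replicate 14 (57.9 ± 6.97% against 31.8 ± 3.98%, adjusted p = 0.000150 from edgeR; 0.0711 with it). The gene's count fell in GMR > prp8 RNAi (log2 fold change −0.60, SE 0.12, adjusted p = 0.0132 from edgeR).

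**Figure D5:**
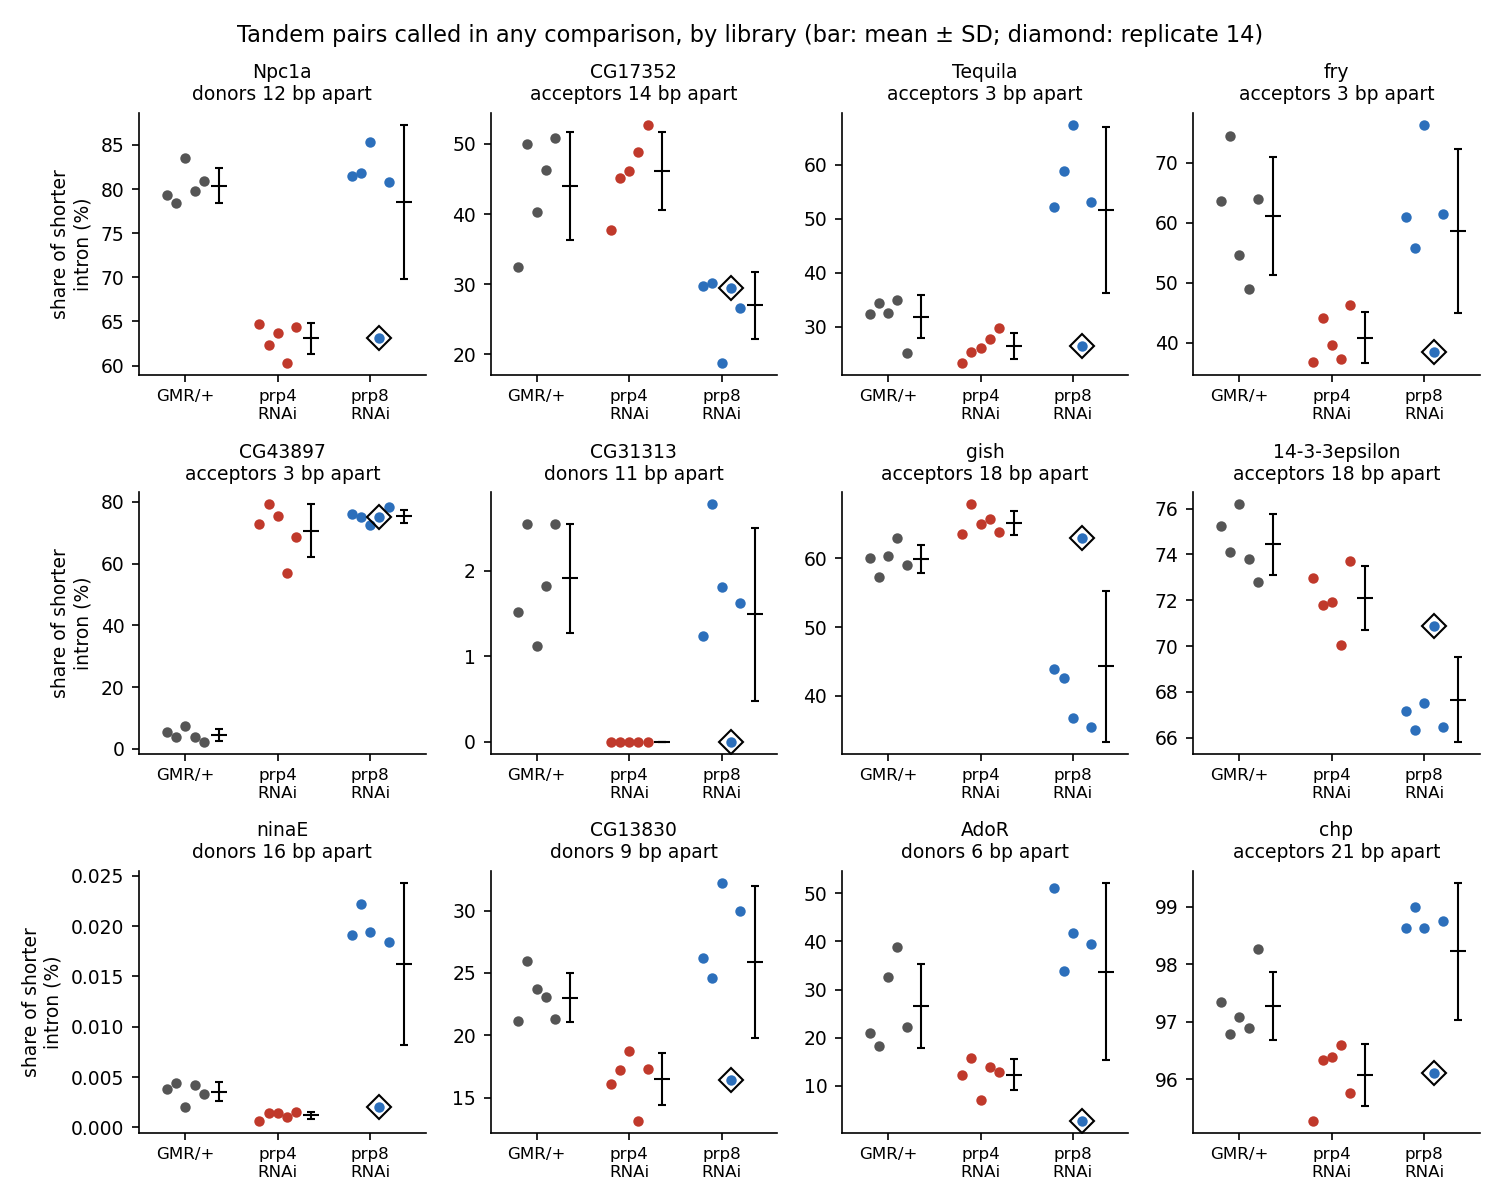
Share of the shorter intron (vertical axes, %, a scale of its own in each panel, which need not start at 0) in every library of the 3 genotypes for the 12 tandem pairs past the threshold in any comparison, with a point for each library, a bar at the mean ± SD of 5 and a diamond around replicate 14. In Npc1a, Tequila, fry, CG31313, CG13830, chp and 14-3-3epsilon the diamond lies within the range of GMR > prp4 RNAi and outside that of the other prp8 libraries, in CG17352 the reverse holds, and in CG43897 it lies within both.

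At these sites the library labelled GMR > prp8 RNAi replicate 14 lay with the prp4 knockdown. Of the 10 pairs that differed between the knockdowns without it, it lay nearer to the prp4 mean in 9, within the range of the prp4 libraries in 6 and within the range of the other prp8 libraries in 1, CG17352. These 10 pairs were chosen without its values. With it left out, the differences in Tequila (log2 odds ratio −1.93, adjusted p = 3.00e-06), AdoR (−2.25, adjusted p = 2.50e-06) and gish (1.52, adjusted p = 9.38e-10) grew, from edgeR. Those of ninaE (−3.98), Npc1a (−1.44), chp (−1.69), CG13830 (−0.997) and CG17352 (1.25) grew too (adjusted p from 2.37e-19 to 0.0138 from edgeR). For CG31313 the adjusted p without it was 2.41e-08 from edgeR.

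The 12 pairs past the threshold in any comparison comprised 7 acceptor and 5 donor pairs in 12 genes (acceptor pairs were 69.6% of all tandem pairs). Of these, 9 were at a multiple of 3 (82.8% of all tandem pairs) and 9 lay wholly in coding sequence (80.8% of all tandem pairs). The 12 pairs are too few to be read against these shares. The pairs of CG31313, ninaE and CG17352 were not at a multiple of 3, and of these only that of CG17352 lay wholly in coding sequence.

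Of 14 core clock genes, tim and Pdp1 held 3 pairs, of which 0 passed the threshold, too few to be read against the background. In tim, the partner of PER in the clock's negative loop, the acceptors lay 3 bp apart in coding sequence (chromosome 2L, introns 3502127 to 3502415 and 3502124 to 3502415). The share of the upstream acceptor ranged from 93.5 to 96.3% with a median of 96.0% in GMR/+. The means were 95.6 ± 1.18% in GMR/+, 94.8 ± 0.846% in GMR > prp4 RNAi and 95.3 ± 0.795% in GMR > prp8 RNAi (adjusted p = 0.702 and 0.969 against GMR/+ from edgeR). The ranges overlapped in both comparisons, although the count of tim rose in GMR > prp4 RNAi (log2 fold change 0.22, adjusted p = 0.0145 from edgeR). Pdp1, an activator of Clk transcription, had donors 9 bp apart with shares of 63.9 ± 1.77, 66.3 ± 3.62 and 66.1 ± 3.15%, and acceptors 15 bp apart with 2.32 ± 0.798, 2.61 ± 0.591 and 2.41 ± 0.688%.

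vsg had acceptors 3 bp apart in coding sequence (chromosome 3L, introns 9714624 to 9715743 and 9714624 to 9715746). The share of the upstream one was 44.3 ± 0.768% in GMR/+, 41.3 ± 1.83% in GMR > prp4 RNAi and 41.7 ± 3.43% in GMR > prp8 RNAi. The controls and the prp4 knockdown did not overlap, with a difference of −2.99 points (exact two-sided permutation p = 0.00794, the smallest that 5 against 5 libraries allow), and the test over all pairs did not pass (adjusted p = 0.697 from edgeR).

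Of 25 genes of neuronal excitability and synapses, 7 held 15 tandem pairs, and none passed the threshold in the 3 comparisons. The background was 1.82, 1.89 and 1.07% of all pairs, so 15 pairs are too few to be read against it. Their mean shares in GMR/+ ran from 12.1 to 94.3%. In Syt1, the calcium sensor of vesicle release, the deepest acceptors lay 6 bp apart with shares of 83.5 ± 3.56, 85.5 ± 2.94 and 81.8 ± 3.23%. In Shal, a potassium channel, the donors lay 11 bp apart in the 5′ UTR, with shares of 34.0 ± 4.19, 35.8 ± 4.08 and 36.4 ± 4.51%. In cpx, the complexin that clamps vesicle fusion, acceptors 9 bp apart had 78.0 ± 5.78, 79.0 ± 3.09 and 78.7 ± 1.51%.

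Of 23 phototransduction genes, 5 held 15 tandem pairs, most of them in ninaE. The ninaE pair above was the only one past the threshold, in all 3 comparisons, and 15 pairs are again too few to be read against the background. Arr1, an arrestin of photoreceptors, used the upstream of its acceptors 9 bp apart at 99.97 ± 0.0144% in GMR/+. In trp, the light-gated channel, the downstream of the donors 20 bp apart had 3.10 ± 0.266% in GMR/+, 2.36 ± 0.370% in GMR > prp4 RNAi and 2.76 ± 0.416% in GMR > prp8 RNAi (adjusted p = 0.168 and 0.797 from edgeR). Of 44 splicing factors, 4 held 7 tandem pairs, none past the threshold and too few to be read against the background. mub, an RNA-binding protein with KH domains, had acceptors 15 bp apart with shares of 71.0 ± 2.80, 71.0 ± 3.54 and 74.3 ± 2.27%. In B52, an SR protein, acceptors 15 bp apart had 31.1 ± 8.01, 31.3 ± 8.79 and 26.0 ± 3.87%.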

How the data were processed

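Alignment by the authors used STAR 2.5.3a and BDGP6 (both per the labels). With PORT they discarded mitochondrial and ribosomal reads and resampled reads to reduce differences between libraries, such as those in depth. They deposited counts of reads per gene, exon and junction without scaling. Exon counts were not used here. Junction counts were paired as described, with coordinates as the first and last base of the intron. Annotation was Ensembl release 115 (BDGP6), of which 29193 introns matched the 30178 junctions with at least 75 reads. The tandem pairs, gene lists and tests were chosen with earlier results of these data known.

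Pairs were fitted in R 4.3.3 with the quasi-likelihood test of edgeR 4.0.16, with a term for each library, one for the shorter intron and its interaction with genotype, on 4401 pairs and 5 + 5 libraries, with Benjamini-Hochberg adjustment. Gene counts were fitted with edgeR after TMM and filterByExpr. Single pairs were also compared by exact two-sided permutation tests (scipy 1.17.1). The scripts were tested on simulated data. There edgeR called 34, 35 and 31 of 100 pairs changed 2-fold in the 3 comparisons, so a pair not called can have changed. Of the same pairs limma called 26, 28 and 26, and DESeq2 18, 24 and 18. False calls among the unchanged simulated pairs were 6, 1 and 3 by edgeR, 23, 19 and 21 by limma, and 0, 1 and 0 by DESeq2. Libraries were grouped by their labels, which do not say that the libraries come from separate flies, and p-values measure the spread between these libraries. Counting limits cover counting error only.

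Pairs named were those past the threshold in any comparison, the 5 deepest acceptor and donor pairs with a minor intron of at least 5%, the 5 deepest acceptor pairs 3 bp and donor pairs 4 bp apart, pairs in genes the study names, pairs at the limits of the rule, and examples of the gene lists. The limit of 5% on the minor intron also held for the deepest pairs 3 and 4 bp apart. The alternatives were DESeq2 1.42.0, limma 3.58.1, diffSpliceDGE, 15 libraries in one fit, other minimums (30 and 300 reads), a log2 odds ratio of at least 1, distances of 1 to 12 bp, annotated introns only and each replicate left out. A restriction to introns with canonical end bases was planned and not run, since no genome sequence was used here.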

Additional observations from a re-analysis of the deposited data

Results flagged for a closer look

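In 106 groups of 5 libraries of the named pairs a library lay far from the others of its group 11 times, measured as its gap to the nearest library over the range of the group, with a limit of 0.71 that chance passes in about 1 of 20 groups (5.3 of 106). Replicate 14, labelled GMR > prp8 RNAi, gave 4 of these: Npc1a (share 63.2%, gap 0.793), ninaE (0.00203%, gap 0.813), 14-3-3epsilon acceptors 18 bp apart (70.9%, gap 0.740) and chp (96.1%, gap 0.873). The others were in Tequila (GMR/+ replicate 5, 25%, gap 0.739), lig (GMR/+ replicate 4, 71.5%, gap 0.728), CG4577 (GMR > prp8 RNAi replicate 11, 9.42%, gap 0.759), Jabba (GMR/+ replicate 4, 46.4%, gap 0.902), tim (GMR/+ replicate 1, 93.5%, gap 0.893), CG43897 acceptors 3 bp apart at 9832867 (GMR > prp4 RNAi replicate 9, 3.35%, gap 0.909) and 14-3-3epsilon acceptors 6 bp apart (GMR/+ replicate 2, 85.3%, gap 0.801).

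The effects of the knockdowns differed from each other by edgeR's test of that difference in 9 pairs. The log2 odds ratios of prp4 against prp8 were −3.65 for ninaE, −6.13 for CG31313 (a fitted value that rests on a group at 0 and is no bound), 1.24 for gish, −1.12 for Npc1a, −1.21 for chp, −0.811 for CG13830, −1.92 for AdoR, −1.41 for Tequila and 1.19 for CG17352.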

How the results depend on the processing

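No single result past the threshold changed direction with DESeq2, limma, 15 libraries in one fit or a library left out. The background share of all pairs was computed only for edgeR, with all libraries and without replicate 14. Counts under the other settings therefore have no background beside them, and limma made more false calls than edgeR on the simulated data. The number of tandem pairs past the threshold was 6 for GMR > prp4 RNAi against GMR/+, with 3 by DESeq2, 12 by limma and 5 to 7 with a library left out. For GMR > prp8 RNAi against GMR/+ it was 5, with 2 by DESeq2, 8 by limma, 3 with a log2 odds ratio of at least 1, 1 at 1 to 12 bp and 3 to 9 with a library left out: 9 without replicate 14 (labelled GMR > prp8 RNAi), and 3 without replicate 11, 13 or 15 or without GMR/+ replicate 2 or 4. Between the knockdowns it was 9, with 3 by DESeq2, 5 at 1 to 12 bp, 5 by diffSpliceDGE and 7 to 10 with a library left out. The cause of these differences was not tested, except that 1 to 12 bp keeps fewer pairs. diffSpliceDGE called 6 pairs against GMR/+ in each knockdown, of which 3 were among the 6 and 3 among the 5. Between the knockdowns 4 of its 5 were among the 9. The other settings (15 libraries in one fit, minimums of 30 and 300 reads, annotated introns only) stayed within 1.5 times. Of 20 single results past the threshold, 8 stayed past it with DESeq2, limma, 15 libraries in one fit and each library left out. The read minimums and diffSpliceDGE were not part of this count. With a library left out 25 of 200 values fell short of the threshold, and 13 of 60 under other tools or the one fit. Against GMR/+ DESeq2 lost ninaE, CG13830 and fry in GMR > prp4 RNAi and gish, 14-3-3epsilon and CG17352 in GMR > prp8 RNAi (adjusted p from 0.0551 to 0.115). Between the knockdowns it lost Npc1a, CG13830, CG17352, chp, AdoR and Tequila (adjusted p from 0.0621 to 0.218). No paired analysis was possible because each library has a replicate number of its own and the labels link none across genotypes. Depth limits pairs of few reads: those of fry, AdoR and CG17352 rest on 31 to 215 reads per intron and genotype, and the shorter intron had 44, 0 and 31 reads in CG31313, 60 and 21 in GMR/+ and GMR > prp4 RNAi in ninaE, and 25 in GMR/+ in CG43897. The restriction to canonical end bases was not run.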
